A study of Homo sapiens with 6 samples.

Results

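The genes described here encode the enzymes that make cholesterol and fatty acids and the proteins that control them. They are 40 named genes, chosen by symbol for their place in mevalonate and sterol synthesis, in the control of sterol regulatory element-binding proteins (SREBPs), and in the synthesis, elongation and desaturation of fatty acids. The choice was made with earlier results of these data known, so their counts beside the shares of all genes are a description only. All 40 were among the 60623 genes of the count table. RNA-Seq was performed on TC28a2 cells, an immortalized human chondrocyte line, treated for 24 hours with 2 μM mocetinostat or with its solvent, DMSO. Mocetinostat inhibits class I histone deacetylases (HDACs). There were 3 samples per condition, which the study describes as independent experiments, and TC28a2 is a single immortalized line, so the replicates share one genetic background. The treatment is the only difference between the conditions that the labels give.

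Cholesterol synthesis starts from acetyl-CoA, runs through mevalonate and the isoprenoid farnesyl diphosphate to squalene, and ends in a series of steps in the endoplasmic reticulum that turn lanosterol into cholesterol. Fatty acid synthesis starts from the same acetyl-CoA, which is carboxylated to malonyl-CoA and built into palmitate, and elongases and desaturases then lengthen the chain and add double bonds. Many of these genes are targets of the SREBPs, transcription factors that leave the endoplasmic reticulum when sterols are scarce, escorted by SCAP and held back by the INSIG proteins. Inherited defects in EBP or NSDHL, enzymes of the last steps to cholesterol, cause malformations of cartilage and bone.

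Total counts ranged from 4873426 to 11031132 in the DMSO samples and from 1619344 to 5089542 in the mocetinostat samples, so low genes were measured less precisely after treatment. Replicates varied with a biological coefficient of variation of 9.30%. Of the 8 chondrocyte markers examined, 0 were without counts in the DMSO samples, and their summed level, in CPM (library-scaled counts, with TMM factors), was 115 to 141 with DMSO and 257 to 297 with mocetinostat, with 5 of the 7 tested called higher. The part of this marker change in the results was not tested. Markers of cell types rich in lipid synthesis stayed low, with summed levels of 1.03 to 2.71 CPM with DMSO and 0.829 to 1.86 CPM with mocetinostat for 4 adipocyte markers (LEP had no counts), and 0.905 to 4.16 CPM and 1.86 to 4.14 CPM for 4 hepatocyte markers. The summed level of 4 macrophage markers was 4.57 to 8.12 CPM with DMSO and 7.73 to 14.3 CPM with mocetinostat, with 1 of the 2 tested called higher. In bulk samples, a change in the RNA of a gene per cell and a change in the share of cells that express it cannot be told apart. Libraries were made from equal amounts of total RNA, so a change in the total RNA per cell was not measured.

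With mocetinostat, 1 to 3 genes in each of the 6 role groups rose past both thresholds, as did 20.2% of all genes tested. They were 2 of 8 for mevalonate to isoprenoids, 3 of 12 for squalene to cholesterol and 3 of 6 for SREBP control. For fatty acid synthesis, desaturation and elongation they were 1 of 3, 3 of 5 and 3 of 6. All 40 genes passed the filter on low counts, 38 of them with at least 10 counts in every sample. With edgeR's quasi-likelihood test, Benjamini-Hochberg adjusted over the 13966 genes tested, 15 of the 40 genes were upregulated at an adjusted p under 0.05 and a log2 fold change over 1, and 0 were downregulated at the matching thresholds. With DESeq2, 14 were called higher and 0 lower, against 8.44% and 2.91% of the 40503 genes in that fit. At any fold 24 were higher and 2 lower, against 11.4% and 9.37% of those genes. The DESeq2 fit kept genes that the filter on low counts removed, so its shares are no like-for-like background for the 40 genes. MVK, IDI1, NSDHL, SREBF2, ELOVL1 and ELOVL6 no longer passed. Tested against the fold threshold itself (edgeR's glmTreat), 6 of the 40 were higher, against 14.8% of all genes tested. With each library thinned to the depth of the shallowest, IDI1, NSDHL, SREBF1, ACACA and ELOVL1 did not pass. There, LSS (0.29), LBR (0.33) and SCAP (0.28) passed as higher, and MVD (1.22) passed both thresholds. The number higher at an adjusted p under 0.05 after thinning was 29, against 31.1% of all genes tested. With edgeR, at an unadjusted p under 0.05 and any fold, 30 were higher and 3 lower. The share of all genes at this unadjusted cutoff is not given here. Across all genes tested, 20.2% were called higher and 8.18% lower. At an adjusted p under 0.05 and any fold, 29 genes were higher (32.9% of all genes tested), 3 were lower (31.4% of all genes tested), and 8 did not pass. In 27 genes all mocetinostat samples lay above all DMSO samples (33.7% of all genes tested), and in 3 all lay below (32.8% of all genes tested). The median log2 fold change was 0.70 over the 40 genes and -0.0021 over all genes tested. The largest increases were those of the elongases ELOVL4 and ELOVL7, the desaturase SCD5 and the acetyl-CoA carboxylase ACACB, each present at a low level in DMSO, while FASN, the fatty acid synthase, had a log2 fold change of 0.01 and ACAT2, which opens the sterol branch, fell.

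**Figure D1:**
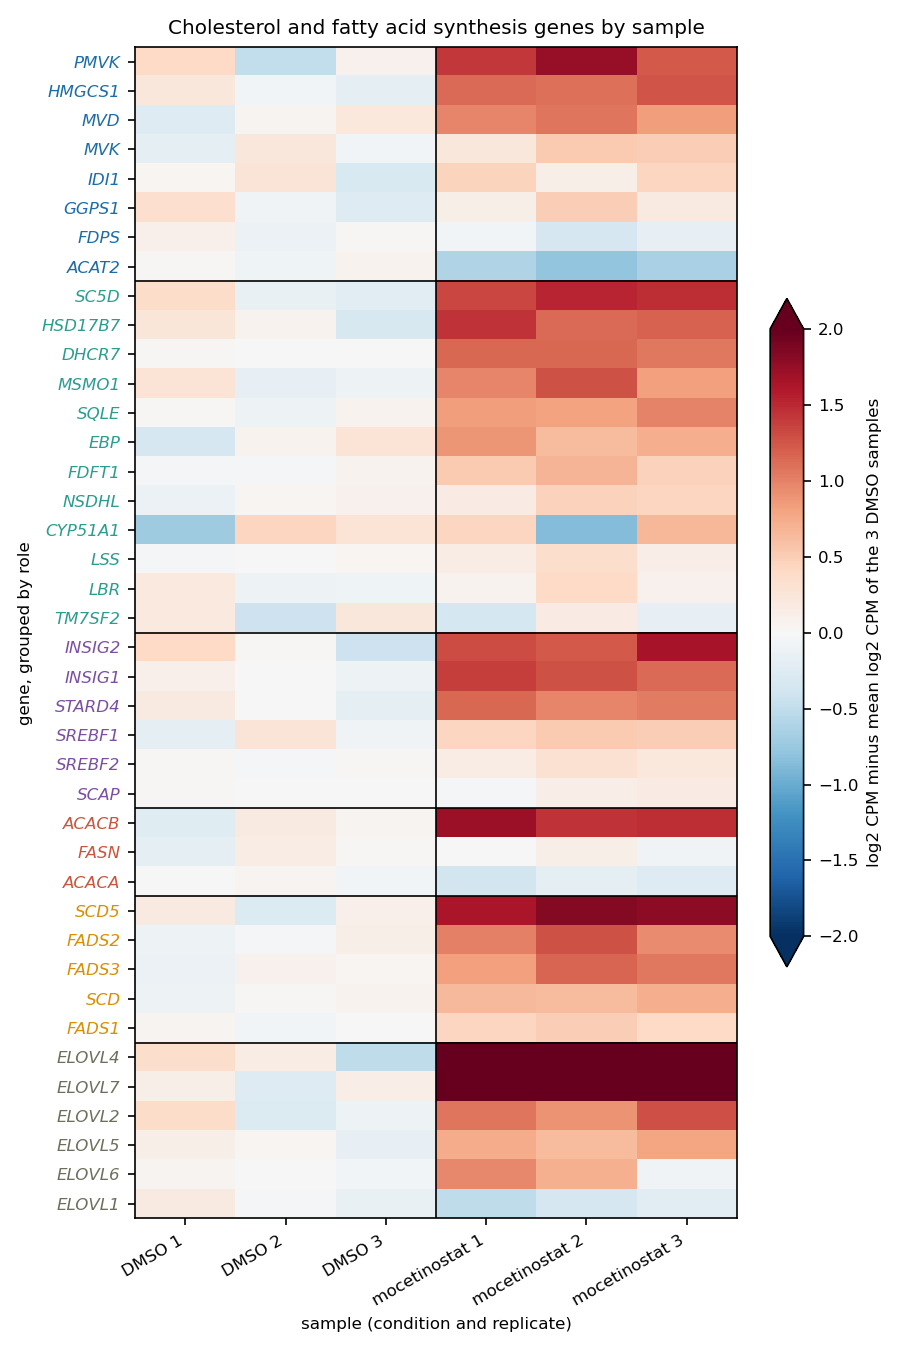
Level of each of the 40 genes in each sample, as log2 CPM minus the mean log2 CPM of the 3 DMSO samples (color), with genes in rows grouped by role and samples in columns. In 27 rows every mocetinostat sample lies above every DMSO sample, and the rows of ELOVL4 and ELOVL7 exceed the top of the color scale.

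The promoter windows of these genes, from 250 bases before to 50 bases after each annotated start in RefSeq (GRCh38.p14), were searched on both strands for 3 motifs. Windows were found for 36 of the 40 genes; SQLE, FASN, ACAT2 and FDFT1 had no entry. The CCAAT box (letters CCAAT), the motif of the factor NF-Y, which acts beside SREBPs at many sterol genes, was in 26 of the 36 genes (72.2%), against 39.7% of all genes in the table and 43.5% of the tested genes with a window. It was in 11 of the 15 upregulated genes. The GC box (letters GGGCGG), the motif of the Sp family, was in 33 of the 36 genes (91.7%) against 78.4% of the tested genes. A sterol response element core (letters TCACNCCAC) was in 1 of the 36 genes, SREBF2, against 1.36% of the tested genes. None of these motifs contains another. Each match is a description of the letters only. The sequences below are shown because they hold the SREBF2 core, in capitals, and a CCAAT box in 1 upregulated gene of each role group that had one outside annotated exons, in capitals as ATTGG where the box lies on the opposite strand. All are read 5′ to 3′ on the strand of the gene.
SREBF2, chr22:41832962-41832990, plus strand: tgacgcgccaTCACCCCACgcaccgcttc
HSD17B7, chr1:162790630-162790674, plus strand: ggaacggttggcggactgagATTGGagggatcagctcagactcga
INSIG1, chr7:155297688-155297732, plus strand: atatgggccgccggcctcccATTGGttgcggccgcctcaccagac
ACACB, chr12:109154447-109154491, plus strand: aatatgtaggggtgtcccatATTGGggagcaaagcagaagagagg
SCD5, chr4:82798907-82798951, minus strand: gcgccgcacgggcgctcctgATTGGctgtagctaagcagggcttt
ELOVL4, chr6:79947554-79947598, minus strand: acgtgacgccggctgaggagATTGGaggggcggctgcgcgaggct
The ACACB stretch lies within the gene, before one of its internal starts. The SREBF2 stretch overlaps an annotated exon, and the other 5 do not.

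Of the 8 genes that lead from acetyl-CoA through mevalonate to isoprenoids, 2 were upregulated at both thresholds, 5 rose and 1 fell at an adjusted p under 0.05, and the median log2 fold change was 0.37. HMGCS1, which makes HMG-CoA, was at 97.1, 80.0 and 73.4 CPM in the DMSO samples and at 182, 178 and 199 CPM in the mocetinostat samples. The conditions did not overlap, and the log2 fold change was 1.15 (SE 0.10; edgeR adjusted p = 1.76e-16). PMVK, which adds the second phosphate to mevalonate, was at 9.32, 4.998 and 7.52 CPM with DMSO and at 18.8, 23.6 and 16.6 CPM with mocetinostat. Its lowest mocetinostat sample was above its highest DMSO sample, with a log2 fold change of 1.35 (SE 0.24; edgeR adjusted p = 1.6e-06). MVD, the decarboxylase that follows, rose by 0.95 (log2; SE 0.12) without reaching the fold threshold, which it passed (1.05) when DMSO replicate 3 was left out.

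The genes at the start of the route and at its branch point behaved differently. ACAT2, the cytosolic thiolase that joins 2 molecules of acetyl-CoA, was at 137, 127 and 140 CPM with DMSO and at 88.4, 78.1 and 86.2 CPM with mocetinostat. All mocetinostat samples were below all DMSO samples, and the log2 fold change was -0.67 (SE 0.10; edgeR adjusted p = 6.33e-08). Exons of ACAT2 lie to 22.2% under genes of the opposite strand, mostly TCP1 (log2 fold change -0.31) and SOD2 (1.42), and the sources used here do not state whether reads were counted by strand. FDPS, which makes farnesyl diphosphate, was at 126, 109 and 120 CPM with DMSO and at 113, 93.0 and 105 CPM with mocetinostat. These ranges overlapped, with a log2 fold change of -0.17 (SE 0.10; edgeR adjusted p = 0.141). GGPS1, which makes the longer geranylgeranyl diphosphate, was at 3.68 to 5.52 CPM with DMSO and at 4.76 to 6.20 CPM with mocetinostat, and did not pass the test (log2 fold change 0.18, SE 0.38). MVK and IDI1, the mevalonate kinase and the isomerase of isopentenyl diphosphate, rose by 0.40 and 0.34 on the log2 scale with overlapping samples, and each lost its call in some of the fits that left out 1 sample. MVK did not pass without DMSO replicate 1 (0.28) or 3 (0.35) or mocetinostat replicate 2 (0.33) or 3 (0.34), and IDI1 did not pass without DMSO replicate 3 (0.19) or mocetinostat replicate 1 (0.27) or 3 (0.30). Exons of GGPS1 lie to 41.0%, of HMGCS1 to 37.7%, of FDPS to 18.6% and of IDI1 to 15.0% under other genes. The gene over HMGCS1 had 1 count in all samples, but the one that shares 37.3% of the exons of GGPS1 on the same strand, ENSG00000285053, had 127 counts (log2 fold change -0.51) beside 10 to 61 counts per sample for GGPS1, whose level and change are therefore uncertain.

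Of the 12 genes that turn farnesyl diphosphate into squalene and cholesterol, 3 were upregulated at both thresholds, 8 rose at an adjusted p under 0.05, the other 4 did not pass, and the median log2 fold change was 0.66. DHCR7, which reduces 7-dehydrocholesterol to cholesterol, was at 94.1, 92.5 and 92.3 CPM with DMSO and at 205, 207 and 194 CPM with mocetinostat. The replicates of each condition lay close together, and the log2 fold change was 1.12 (SE 0.09; edgeR adjusted p = 2.13e-17). SC5D, the desaturase of the step before it, was at 37.6, 26.2 and 25.1 CPM with DMSO and at 73.4, 83.7 and 81.2 CPM with mocetinostat. The conditions did not overlap, with a log2 fold change of 1.38 (SE 0.14; edgeR adjusted p = 2.96e-14). HSD17B7, a ketoreductase of the C4 demethylation, was at 8.05, 7.08 and 5.45 CPM with DMSO and at 18.4, 14.9 and 15.3 CPM with mocetinostat. Its log2 fold change was 1.25 (SE 0.25; edgeR adjusted p = 1.25e-05), and its pseudogene HSD17B7P2 held 35 counts over all samples beside 314 for the gene.

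Other genes of this route rose by less or did not pass. SQLE, the squalene epoxidase, was at 171, 158 and 178 CPM with DMSO and at 294 to 335 CPM with mocetinostat. No sample overlapped, and the log2 fold change was 0.87 (SE 0.08; edgeR adjusted p = 1.01e-14). FDFT1, the squalene synthase, rose by 0.55 (log2; SE 0.09) and MSMO1, the C4 methyl oxidase, by 0.99 (SE 0.12). MSMO1 passed the fold threshold without DMSO replicate 1 (1.12), mocetinostat replicate 1 (1.01) or mocetinostat replicate 3 (1.07). EBP, the sterol isomerase, whose exons lie to 36.4% under a read-through gene with 3 counts, rose by 0.76 (SE 0.15), and NSDHL, a dehydrogenase of the C4 demethylation, by 0.33 (SE 0.14). NSDHL did not pass without DMSO replicate 1 (0.24) or 2 (0.32) or mocetinostat replicate 2 (0.26) or 3 (0.28). LSS, which closes the rings to lanosterol, was at 112, 114 and 117 CPM with DMSO and at 126, 146 and 125 CPM with mocetinostat. Its samples did not overlap, but its log2 fold change of 0.20 (SE 0.10) did not pass the test (edgeR adjusted p = 0.0697). LBR, which is both a sterol reductase and a protein of the nuclear envelope, had a log2 fold change of 0.17 (SE 0.11) and passed only when DMSO replicate 1 was left out (0.25), among the fits that left out 1 sample.

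The other sterol reductase of this step, TM7SF2, and the lanosterol demethylase CYP51A1 were too low for a precise comparison. TM7SF2 was at 2.08 to 3.24 CPM with DMSO and 2.18 to 3.10 CPM with mocetinostat, and CYP51A1 at 2.08 to 4.58 CPM and 1.86 to 5.39 CPM. Their log2 fold changes had standard errors of 0.49 and 0.44, so that a change of the size seen in DHCR7 was within the 95% interval of CYP51A1, which ran from -0.57 to 1.14. The exons of CYP51A1 lie to 74.1% under other genes, 68.2% under a read-through transcript of the same strand with 0 counts in the table, and its 3 pseudogenes held 32, 15 and 9 counts beside 112 for the gene, so its low level is uncertain.

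Of the 6 genes of SREBP control and sterol transport, 3 were upregulated at both thresholds, 5 rose at an adjusted p under 0.05, and the median log2 fold change was 0.77. INSIG1, which retains SREBPs in the endoplasmic reticulum and is itself a target of them, was at 118, 111 and 103 CPM with DMSO and at 288, 267 and 242 CPM with mocetinostat. The conditions were far apart, with a log2 fold change of 1.26 (SE 0.09; edgeR adjusted p = 1.42e-20). INSIG2, its paralog, was at 11.9, 9.16 and 6.78 CPM with DMSO and at 22.4, 21.1 and 28.2 CPM with mocetinostat. It rose by 1.33 on the log2 scale (SE 0.22; edgeR adjusted p = 2.38e-07). STARD4, which carries cholesterol through the cytosol, was at 28.1, 25.0 and 21.7 CPM with DMSO and at 55.1, 49.0 and 51.0 CPM with mocetinostat. Its log2 fold change was 1.05 (SE 0.15; edgeR adjusted p = 3.42e-09), and fell below the fold threshold without DMSO replicate 3 (0.93) or mocetinostat replicate 1 (0.98).

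The transcription factors themselves had smaller log2 fold changes. SREBF1, the factor more often linked to fatty acid genes, was at 37.5, 50.4 and 40.2 CPM with DMSO and at 57.3, 60.7 and 59.7 CPM with mocetinostat. The samples did not overlap, with a log2 fold change of 0.48 (SE 0.13; edgeR adjusted p = 0.00121). SREBF2, the factor more often linked to sterol genes, rose by 0.21 (SE 0.09, edgeR adjusted p = 0.0368). This did not pass in 5 of the 6 fits that left out 1 sample, where its log2 fold change was between 0.15 and 0.24. After a correction for GC content and transcript length, chosen after seeing the data, neither factor passed, with log2 fold changes of 0.22 for SREBF1 and 0.0022 for SREBF2. Without the filter on low counts, SREBF2 was at -0.040. SCAP, the escort protein, had 96.4 to 98.5 CPM with DMSO and 96.0 to 109 CPM with mocetinostat, and did not pass the test (log2 fold change 0.08, 95% interval -0.12 to 0.29).

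Of the 3 genes of fatty acid synthesis proper, 1 rose, 1 fell and 1 did not pass the test. FASN was at 520, 649 and 600 CPM with DMSO and at 585, 640 and 560 CPM with mocetinostat. The conditions overlapped fully, with a log2 fold change of 0.01 (95% interval -0.14 to 0.16; edgeR adjusted p = 0.905). After the correction for GC content and transcript length, FASN, whose longest transcript is 65.3% GC, had a log2 fold change of -0.42 (edgeR adjusted p = 3.46e-09), the smallest adjusted p among its alternatives, which ranged up to 1. Its log2 fold change was -0.24 without the filter on low counts and 0.54 when libraries were scaled to GAPDH, and it passed the test in both. ACACA, the cytosolic acetyl-CoA carboxylase, was at 206, 214 and 198 CPM with DMSO and at 160, 180 and 173 CPM with mocetinostat. All mocetinostat samples were lower, with a log2 fold change of -0.28 (SE 0.09; edgeR adjusted p = 0.0053), which did not pass without mocetinostat replicate 1 (-0.23). ACACB, the carboxylase of the mitochondrial surface, was at 11.8, 15.8 and 14.4 CPM with DMSO and at 45.6, 37.8 and 38.5 CPM with mocetinostat. It rose by 1.58 on the log2 scale (SE 0.18; edgeR adjusted p = 2.22e-12).

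The 5 desaturase genes all passed the test, 3 of them at both thresholds, and their median log2 fold change was 1.01. SCD, the more abundant stearoyl-CoA desaturase of these cells, was at 678, 733 and 763 CPM with DMSO and at 1137, 1120 and 1200 CPM with mocetinostat. The increase was seen in every sample, with a log2 fold change of 0.67 (SE 0.07; edgeR adjusted p = 4.64e-14). SCD5, its paralog, was at 15.1, 11.04 and 14.4 CPM with DMSO and at 41.4, 47.7 and 46.4 CPM with mocetinostat, a log2 fold change of 1.70 (SE 0.17; edgeR adjusted p = 7.98e-14). FADS1 and FADS2, the front-end desaturases of polyunsaturated fatty acids, rose by 0.43 (SE 0.09) and 1.07 (SE 0.11). FADS2 was at 64.4, 67.7 and 74.6 CPM with DMSO and at 138, 166 and 133 CPM with mocetinostat. FADS3, which acts on sphingoid bases, was at 51.3, 59.1 and 57.3 CPM with DMSO and at 98.7, 125 and 117 CPM with mocetinostat. Its log2 fold change of 1.01 (SE 0.12; edgeR adjusted p = 6.51e-12) was at the edge of the fold threshold and fell below it without DMSO replicate 1 (0.92), mocetinostat replicate 2 (0.92) or mocetinostat replicate 3 (0.97). FADS2 fell below it without DMSO replicate 1 (0.99) or mocetinostat replicate 2 (0.96), and both fell below it after the correction for GC content and transcript length (0.87 for FADS2 and 0.83 for FADS3).

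**Figure D2:**
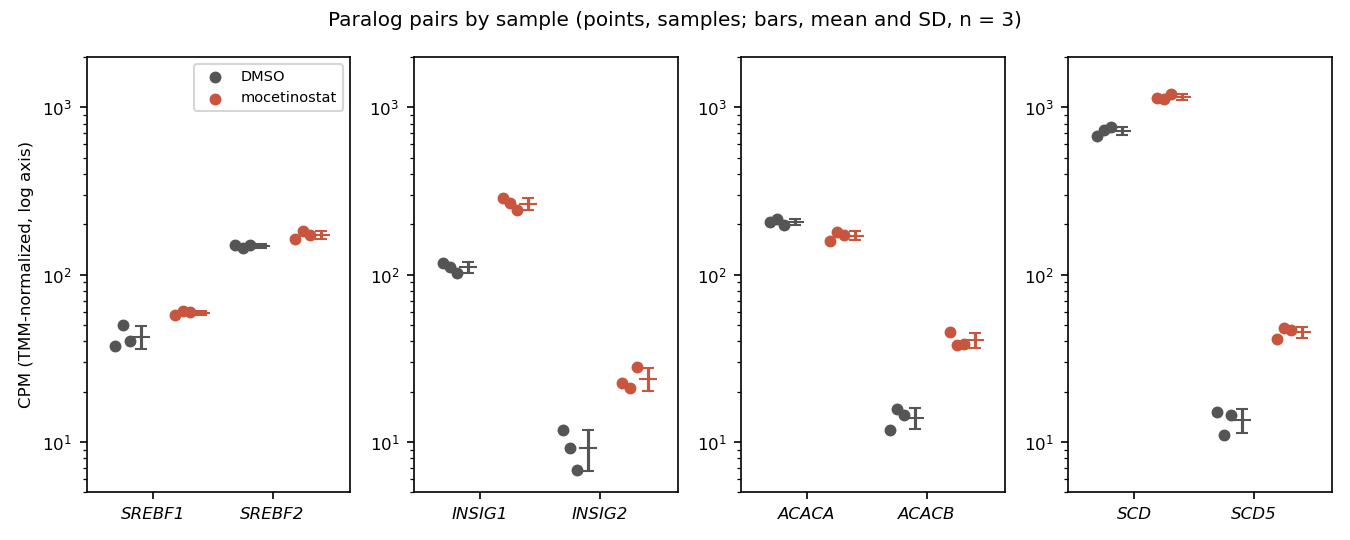
CPM of 4 pairs of paralogs on a log axis, with points for samples and bars for the mean and SD of 3 samples, in DMSO (gray) and mocetinostat (red). ACACB and SCD5, the rarer member of each pair, had larger log2 fold changes than their partners, while ACACA was lower with mocetinostat.

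Within a sample the ratio of 2 paralogs does not depend on how libraries are scaled, and 4 such ratios were compared by an exact two-sided permutation test over samples, whose smallest p with 3 against 3 samples is 0.1. SCD5 counts were 2.23%, 1.505% and 1.89% of SCD counts in the DMSO samples and 3.64%, 4.26% and 3.87% in the mocetinostat samples, a difference of 1.08 in the log2 ratio (exact permutation p = 0.1, 0.2 adjusted over the 4 ratios). ACACB counts were 5.71%, 7.39% and 7.31% of ACACA counts with DMSO and 28.5%, 21.0% and 22.3% with mocetinostat, a difference of 1.81 (exact permutation p = 0.1, 0.2 adjusted). In both pairs the samples of the conditions did not overlap. The ratio of INSIG2 to INSIG1 differed by 0.13 (exact permutation p = 0.7, 0.7 adjusted) and that of SREBF1 to SREBF2 by 0.26 (exact permutation p = 0.4, 0.533 adjusted), with overlapping samples. With 1 sample left out the latter ranged from 0.16 without DMSO replicate 1 to 0.41 without DMSO replicate 2, and the former from -0.060 without mocetinostat replicate 3 to 0.28 without DMSO replicate 1.

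Of the 6 elongases, which add 2 carbons per round to a long-chain acyl-CoA, 3 were upregulated at both thresholds, 5 rose and 1 fell at an adjusted p under 0.05, and the median log2 fold change was 0.88. ELOVL4, which makes very long chain fatty acids, was read 53, 20 and 18 times with DMSO and 227, 56 and 93 times with mocetinostat, or 4.80, 4.17 and 2.65 CPM and 45.0, 34.7 and 38.5 CPM. Its level was 10.1-fold higher, the largest change of the 40 genes, with a log2 fold change of 3.33 (SE 0.22; edgeR adjusted p = 3.79e-22). ELOVL7, which elongates saturated and monounsaturated chains, was at 7.33, 5.62 and 7.37 CPM with DMSO and at 28.8, 44 and 39.0 CPM with mocetinostat. It was 5.21-fold higher, with a log2 fold change of 2.38 (SE 0.21; edgeR adjusted p = 2.22e-16). ELOVL2, which acts on polyunsaturated chains, rose from 33.3, 21.2 and 24.02 CPM to 54.1, 47.7 and 62.6 CPM, a log2 fold change of 1.04 (SE 0.15; edgeR adjusted p = 8.44e-09) that fell below the fold threshold without DMSO replicate 2 (0.89), DMSO replicate 3 (0.94) or mocetinostat replicate 3 (0.94).

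The most abundant elongase per exon length, ELOVL5, rose by 0.72 (log2; SE 0.08). ELOVL6, which elongates palmitate, was at 9.05, 8.75 and 8.40 CPM with DMSO and at 17.1, 14.3 and 8.29 CPM with mocetinostat. Mocetinostat replicate 3 lay below all DMSO samples and the other two above them, and the log2 fold change of 0.64 (SE 0.26; edgeR adjusted p = 0.0238) did not pass without DMSO replicate 2 (0.60) or 3 (0.58) or mocetinostat replicate 1 (0.30) or 2 (0.60). ELOVL1, which elongates saturated very long chains, was at 50.8, 43.3 and 40.4 CPM with DMSO and at 31.5, 35.3 and 38.1 CPM with mocetinostat. All mocetinostat samples were lower, with a log2 fold change of -0.39 (SE 0.15; edgeR adjusted p = 0.0171), which did not pass without DMSO replicate 1 (-0.30) or mocetinostat replicate 1 (-0.30). It did not pass either with DESeq2 (-0.41), where every sample had to hold 10 counts or more (-0.31), after thinning to the smallest total (-0.29) or with scaling to GAPDH (0.15).

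Levels were compared between genes per kilobase of annotated exon. In DMSO, SCD was the highest at 138 CPM per kb, followed by FASN at 63.3, ELOVL5 at 51.8, ACAT2 at 51.0 and SQLE at 39.2 CPM per kb. With mocetinostat, SCD was at 220 CPM per kb, ELOVL5 at 85.2, INSIG1 at 72.8, SQLE at 71.9 and FASN at 63.8, while ACAT2 was at 31.9 CPM per kb. ELOVL4 and ELOVL7 were at 1.28 and 1.52 CPM per kb in DMSO and at 13.1 and 8.35 CPM per kb with mocetinostat, below ELOVL5 in both. ACACB remained below ACACA on this scale, at 0.965 against 15.8 CPM per kb in DMSO and at 2.80 against 13.1 CPM per kb with mocetinostat.

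**Figure D3:**
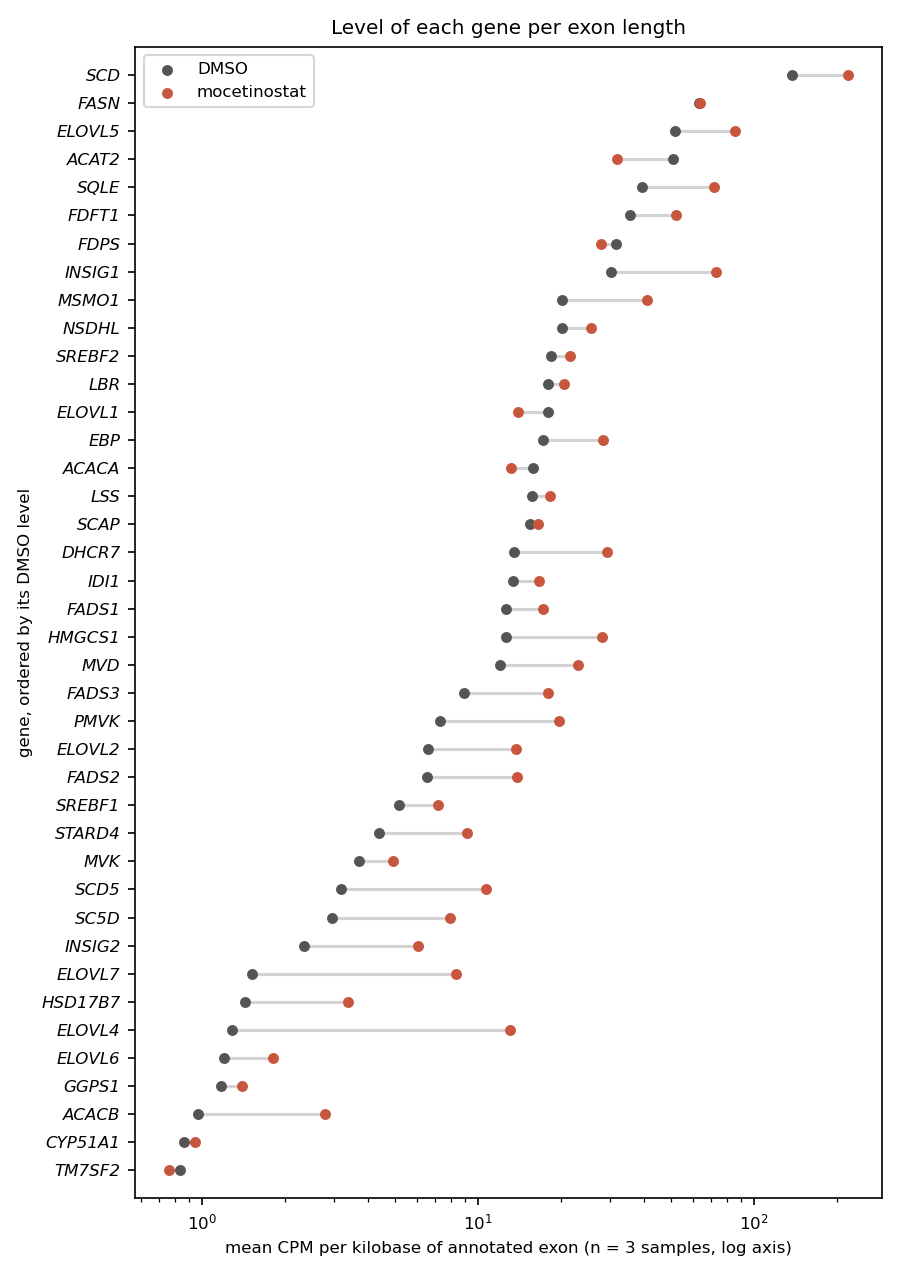
Mean CPM per kilobase of annotated exon (log axis, 3 samples per condition) of each gene in DMSO (gray) and mocetinostat (red), ordered by the DMSO level. SCD is the highest in both conditions, and ELOVL4 moves from 1.28 to 13.1 CPM per kb.

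The scaling of the libraries moved all genes together. GAPDH itself was at 3132, 3032 and 2953 CPM with DMSO and at 2034, 2187 and 2111 CPM with mocetinostat, a log2 fold change of -0.53 (SE 0.06; edgeR adjusted p = 2.58e-12). Scaling each library to its GAPDH count moved the median log2 fold change of the genes tested by 0.536, and 24 of the 40 genes were then called higher, against 31.7% of all genes tested, of which 2.03% were then called lower. ACACA, lower in the TMM fit, was then higher and passed the test in that direction (log2 fold change 0.26), and FDPS (0.36) passed as higher. TM7SF2 (0.31) and ELOVL1 (0.15) were above 0 without passing, and ACAT2 (-0.13) no longer passed. Relative to the median of all genes tested, 35 of the 40 genes were higher under both scalings. A shift shared by all genes leaves this number nearly fixed, so it is no separate check. FASN is among the 35, at 0.01 against a median of -0.0021 in the TMM fit. The number was 33 without DMSO replicate 1, and 33 after the correction for GC content and transcript length.

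**Figure D4:**
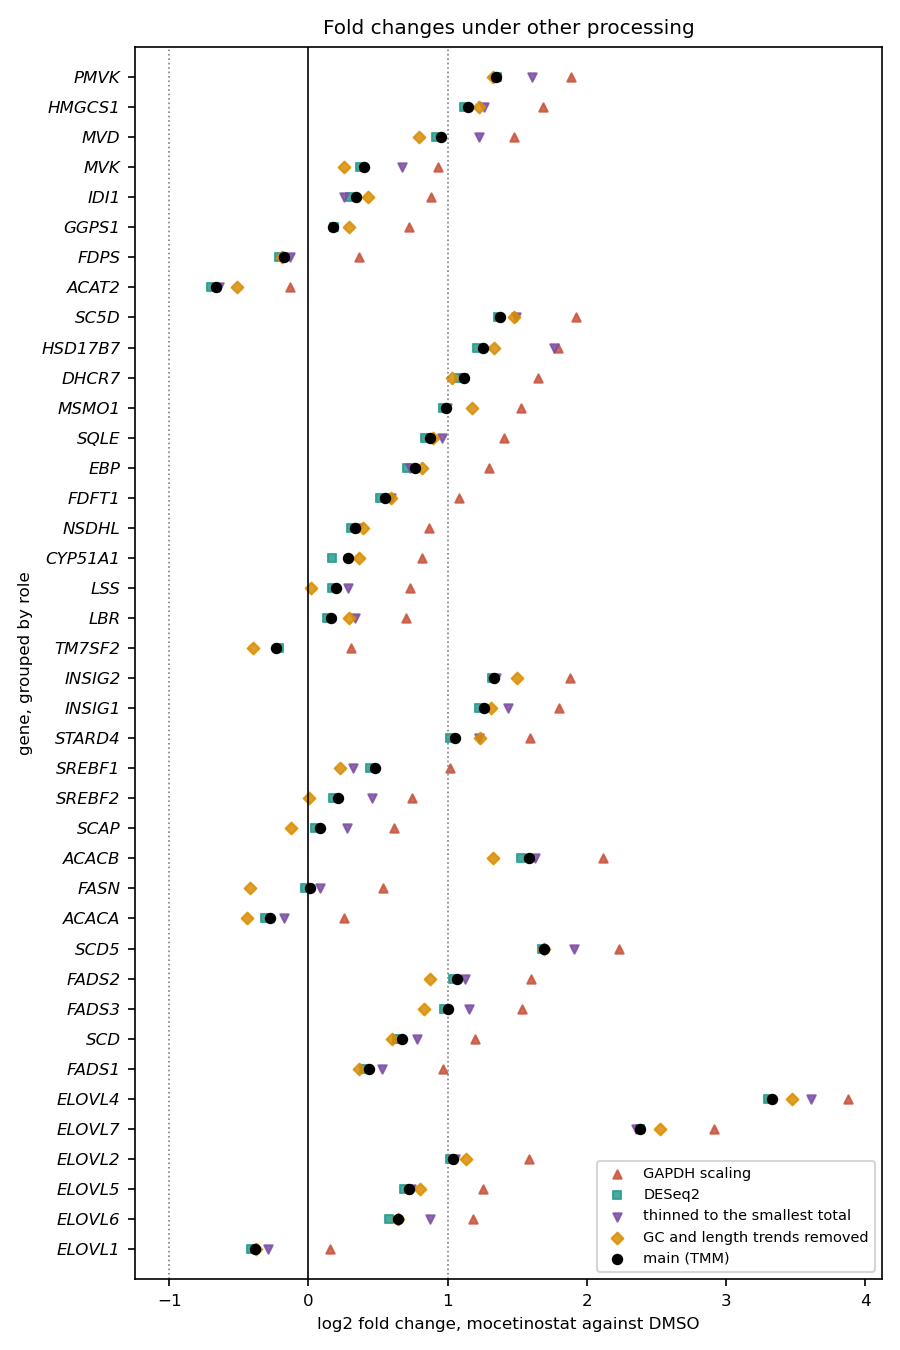
Log2 fold change of each gene under 5 ways of processing (symbols), with the main values in black and dotted lines at 1 and -1. Scaling to GAPDH moves every gene to the right, and removing the GC and length trends moves FASN to -0.42; 37 of the 40 genes were tested after thinning.

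Genes that act around these pathways were read from 6 further lists of 79 genes, of which 73 were tested. There, 13 were called higher and 3 lower, against 20.2% and 8.18% of all genes tested, and the median log2 fold change was 0.01. At an adjusted p under 0.05 and any fold, 32.9% of all genes tested were higher and 31.4% lower. Among 15 tested genes of sterol uptake, esterification and efflux, 5 were called higher (ABCG1, VLDLR, MYLIP, NPC1 and LIPA), 8 rose and 2 fell at an adjusted p under 0.05, and the median log2 fold change was 0.31. ABCG1, a sterol exporter, was read 3, 2 and 6 times with DMSO and 91, 38 and 46 times with mocetinostat, a log2 fold change of 5.27 (SE 0.41). NR1H2, a sterol-sensing nuclear receptor, fell by 0.63 on the log2 scale (SE 0.12). Among 17 tested genes that supply acetyl-CoA or activated fatty acids or complete the elongation cycle, 5 were called higher (ACSL6, ACSL3, CYB5A, ACSS2 and ACSL1), 11 rose and 2 fell at an adjusted p under 0.05, and the median was 0.44. ACSL6, an acyl-CoA synthetase, was read 1, 3 and 0 times with DMSO and 19, 7 and 9 times with mocetinostat, and HACD2, a dehydratase of the elongation cycle, fell by 0.70 (SE 0.09). The names in parentheses other than ABCG1 and ACSL6 were chosen after their values were seen.

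The isoprenoid branches take their substrates from FDPS and GGPS1. Of 13 tested genes, 3 were called lower, FNTB among them, 8 fell at an adjusted p under 0.05, the other 5 did not pass, and the median log2 fold change was -0.55. Of all genes tested, 8.18% were called lower, and at any fold 31.4% were lower and 32.9% higher. With scaling to GAPDH, 3 of the 13 were lower and 4 higher at an adjusted p under 0.05, against 9.82% and 55.2% of all genes tested. FNTB, a subunit of farnesyltransferase, fell by 1.71 on the log2 scale (SE 0.34), and NUS1, a subunit of the dolichol-forming prenyltransferase, fell by 0.52 (SE 0.14), the smallest decrease of those that passed. Of the 12 genes that process and degrade SREBPs and their partners, 1 rose and 4 fell at an adjusted p under 0.05, with no change past the fold threshold. MBTPS2, the protease that releases SREBPs from the membrane, fell by 0.94 (SE 0.16), and ERLIN2, a scaffold of protein degradation at the endoplasmic reticulum, rose by 0.31 (SE 0.12). The samples of ERLIN2 overlapped. With DESeq2, with no filter, and without DMSO replicate 2 or 3 or mocetinostat replicate 1 or 3, 0 of the 12 passed as higher. The number that passed as lower ranged from 1 (after thinning and with GAPDH scaling) to 6 (with no filter and with GC and length trends removed). In these 4 settings, in the same order, 28.3%, 9.82%, 13.9% and 33.4% of all genes tested were lower. With scaling to GAPDH, 10 of these 12 were higher at an adjusted p under 0.05, against the 55.2% of all genes tested.

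Of 6 tested genes of mitochondrial fatty acid synthesis, 1 was called higher, 3 fell at an adjusted p under 0.05, and the median was -0.04. For this list and the next, the shares of all genes tested were 20.2% called higher and 8.18% called lower. At an adjusted p under 0.05 and any fold they were 32.9% higher and 31.4% lower. CBR4, a reductase subunit, rose by 1.16 (SE 0.18), and NDUFAB1, the acyl carrier protein, fell by 0.84 (SE 0.12). Of 10 tested genes of glycerolipid synthesis, 2 were called higher (LPIN3 and PLIN2, the latter named after the values were seen), 4 rose and 1 fell at an adjusted p under 0.05, and the median was 0.03. LPIN3, a phosphatidate phosphatase, was read 14, 2 and 14 times with DMSO and 14, 14 and 6 times with mocetinostat, a log2 fold change of 1.61 (SE 0.54), and AGPAT3, an acyltransferase, fell by 0.71 (SE 0.09).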

How the data were processed

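RNA-Seq was performed on 6 samples of TC28a2 cells, 3 per condition, from 20 ng of total RNA each, with ribosomal sequences depleted once the libraries had been amplified, and read from one end over 100 bases. The deposited values were raw counts per gene, which the authors made with nf-core/rnaseq 1.4.2: Trim Galore 0.6.4, SortMeRNA 2.1b, STAR 2.6.1d against GRCh38 with Ensembl 98, and featureCounts 1.6.4. The strand setting and the treatment of reads with several matches were not given in the sources used here. STAR, featureCounts and DESeq2 1.20.0 are also named in the submitters' processing notes.

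From the counts, edgeR 4.0.16 (limma 3.58.1, R 4.3.3) computed TMM factors, kept 13966 genes with filterByExpr (minimum count 10), and tested treatment with the quasi-likelihood test. The study's thresholds were used for calls, a log2 fold change past 1 in either direction with a Benjamini-Hochberg adjusted p under 0.05. Standard errors were taken from the test statistic. CPM used the TMM factors, and exon lengths, overlaps and GC content were from GENCODE 44, which held 99.46% of the gene identifiers. GC content, and the length used in removing trends, were those of the longest transcript of each gene. Python 3.11.15, pandas 2.3.3, scipy 1.17.1 and matplotlib 3.10.9 were used for summaries. Replicate pairs differed by more than sampling noise (chi-square per degree of freedom 1.93 to 7.95). Counts carry no molecular identifiers, so intervals do not cover every error.

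The members and lists were chosen with earlier results of these data known. Named genes are all 40 members, GAPDH, and from each further list the genes with the highest and lowest log2 fold change among those with an adjusted p under 0.05. Alternatives were DESeq2 1.42.0, RLE factors, library size, GAPDH scaling, no filter, at least 10 counts in every sample, glmTreat, a replicate block, thinning to the smallest total, each sample left out, and, added after seeing the data, removal of GC and length trends. On simulated counts for this comparison (13984 genes), edgeR called 100% of 100 genes changed by 1.5 and of 100 changed by 2 on the log2 scale, and 3 unchanged genes. With glmTreat, 68% and 95% were called. The changed genes were drawn from those with more counts, and all genes shared a common dispersion. The simulation therefore does not cover low genes or changes nearer to the fold threshold.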

Additional observations from a re-analysis of the deposited data

How the results depend on the processing

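Leaving out the filter on low counts moved the median log2 fold change of the genes tested by -0.251, and GAPDH scaling moved it by 0.536. Over all genes, 2827 were called higher and 1142 lower, against 4425 and 284 with GAPDH scaling, 3201 and 2120 with no filter, 2069 and 465 with glmTreat, and 1620 and 704 where every sample had to hold 10 counts or more. Of the 40 genes, 24 were called higher with GAPDH scaling, 9 with no filter and 6 with glmTreat. The shares of all genes tested in each were 31.7%, 7.9% (of 40504) and 14.8%. The 6 were SC5D, INSIG1, ACACB, SCD5, ELOVL4 and ELOVL7, called in every alternative. With 1 sample left out, 13 to 15 of the 40 were called higher, against 19.9% to 21.7% of all genes tested. Shares with no filter are over all genes with any count, so they are no like-for-like background for the 40. Of the 40, 0 were lower at an adjusted p under 0.05 with GAPDH scaling, 5 with no filter and 1 after thinning. The shares of all genes tested in each were 9.82%, 13.9% and 28.3%. With 1 sample left out, 1 to 3 of the 40 were lower, against 27.9% to 29.9% of all genes tested. In the further lists, 20 genes were called higher with GAPDH scaling, against 31.7% of all genes tested. There, 1 was called lower with GAPDH scaling, 7 with no filter and 1 with at least 10 counts. The shares of all genes tested in each were 2.03%, 5.23% and 6.47%. With 1 sample left out, 2 to 5 were called lower, against 7.97% to 8.87% of all genes tested.

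Under GAPDH scaling and no filter the median log2 fold change was 1.22 and 0.44 for all 40 genes, 0.55 and -0.16 for the further lists, 0.91 and 0.12 for mevalonate to isoprenoids, 1.19 and 0.41 for squalene to cholesterol, 1.30 and 0.52 for SREBP control, 0.54 and -0.24 for fatty acid synthesis, 1.54 and 0.75 for desaturation, and 1.42 and 0.63 for elongation. With at least 10 counts it was 0.82 for all 40 genes, 0.90 for squalene to cholesterol and 0.090 for fatty acid synthesis, and after thinning 0.88 for all 40, 0.67 for mevalonate and 0.85 for squalene to cholesterol. With GC and length trends removed it was -0.42 for fatty acid synthesis and 0.83 for desaturation. With 1 sample left out it was 0.63 to 0.72 for all 40 genes, 0.68 to 0.79 for SREBP control, -0.093 to 0.052 for fatty acid synthesis and 0.78 to 1.01 for elongation.

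Directions turned in 11 genes. With GAPDH scaling FDPS (0.36), TM7SF2 (0.31), ACACA (0.26) and ELOVL1 (0.15) turned positive. With no filter GGPS1 (-0.072), LSS (-0.050), LBR (-0.087), SCAP (-0.17), SREBF2 (-0.040) and FASN (-0.24) turned negative. With 1 sample left out CYP51A1 ranged from -0.068 (without DMSO replicate 1) to 0.49. FASN was at -0.023 with DESeq2, -0.093 to 0.052 with 1 sample left out (below 0 without DMSO replicate 1 or mocetinostat replicate 2) and -0.42 with the trends removed, where SCAP was at -0.13. The difference in the log2 ratio of SREBF1 to SREBF2 was -0.13 after thinning. That of INSIG2 to INSIG1 was -0.029 after thinning and -0.060 to 0.28 with 1 sample left out (below 0 without replicate 3 of either condition). Apart from the scaling shifts, the cause was not tested.

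The conditions share replicate numbers, but same-numbered samples did not deviate together (correlations 0.00779, 0.0116 and -0.0162). With a replicate block 15 of the 40 genes were called higher and 29 were higher at any fold, against 20% and 32.3% of all genes tested. No call of the 40 genes changed. Depth limits TM7SF2, CYP51A1 and GGPS1, which could not be tested after thinning.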
